A study of Mus musculus with 12 samples.

Results

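Ribosome footprints on the genes of respiratory complexes II to V were compared between the livers of mice on a high-fat diet and mice on the same diet with lycopene. The genes were chosen by symbol alone: Sdha, Sdhb, Sdhc and Sdhd for complex II, names starting with Uqcr and Cyc1 for complex III, Cycs for cytochrome c, Cox followed by a digit for complex IV, and names starting with Atp5 for complex V. The rule found 58 genes among the 25033 entries of the Ribo-seq table. They were 4 genes of complex II, 9 of complex III, Cycs, 18 Cox4 to Cox8 genes, which make subunits of complex IV, 9 Cox10 to Cox20 genes, which make factors that build complex IV, and 17 genes of complex V.

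All mice were male C57BL/6, fed from week 8 for 8 weeks and 16 weeks old at the end. The HFD group (3 Ribo-seq libraries, HFD1 to HFD3) had a high-fat diet, and the LYC group (3 Ribo-seq libraries, LYC1 to LYC3) had that diet with lycopene, a red carotenoid of tomatoes. Since the LYC label for treatment mentions no lycopene, the lycopene rests on the titles and the methods. The labels also speak of pooling within or across groups before libraries were built, so p-values measure the spread between these libraries, which may be partly technical. Animals on standard feed were not analysed here.

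The respiratory chain sits in the inner mitochondrial membrane and moves electrons from nutrients to oxygen. Complex II, succinate dehydrogenase, takes electrons from succinate and is also an enzyme of the citric acid cycle. Complex III passes electrons on to cytochrome c, complex IV (cytochrome c oxidase) hands them to oxygen, and complex V (ATP synthase) uses the proton gradient so built to make ATP. The liver relies on this chain for fatty acid oxidation, gluconeogenesis and urea synthesis. Most subunits are encoded in the nucleus, made on cytosolic ribosomes and imported, and a few core subunits of complexes III, IV and V are encoded by mitochondrial DNA. The latter were not analysed here.

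The deposited unit was RPKM, reads per kilobase of transcript per 1e6 reads, and the whole reads behind the values were recovered from their step sizes. Library totals were 834410 to 4405542 reads in HFD and 311050 to 412116 reads in LYC, so that 1 read on a gene of 1 kb stood for 0.227 to 1.20 RPKM in HFD and for 2.43 to 3.21 RPKM in LYC. Small non-coding RNA genes held 2.57% to 4.12% of the gene reads of a library in HFD and 8.69% to 13.3% in LYC. Values below are normalised RPKM, the deposited RPKM divided by the library's scaling factor (trimmed mean of M-values, TMM), unless another quantity is named. The summed level of 6 hepatocyte markers was 34993 to 40787 in HFD and 28997 to 40750 in LYC, and 1 of the 6, Cps1 of the urea cycle, was called higher (log2 fold change 1.07, adjusted p = 0.0556). The summed level of 6 Kupffer cell markers was 106 to 118 in HFD and 122 to 160 in LYC, and that of 5 cholangiocyte markers was 15.0 to 23.7 in HFD and 3.62 to 9.20 in LYC. None of the 5 cholangiocyte markers had enough reads to be tested. Their sums in LYC are near the floor, as 1 read on a gene of 1 kb stood for 2.43 to 3.21 RPKM there. No Kupffer cell or cholangiocyte marker was at 0 in all libraries. The sums of stellate cell, endothelial cell, red cell, muscle and brown fat markers overlapped between the groups, and Ucp1 and Dio2, which mark brown fat, were at 0 in every library. The part of other cell types, of depth and of small RNA reads in the results was not tested.

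Of the 58 genes, 47 passed the filter on low reads and were tested. A call needed a log2 fold change beyond 1 in either direction together with a two-sided, unadjusted p under 0.01 in limma's moderated test of LYC against HFD. The test called 12 of the 47 higher in LYC, where it called 6.98% of the 5663 genes tested higher. It called 2 of the 47 lower in LYC, where it called 6.52% of all genes lower. The called higher genes were Atp5j, Cox5b, Atp5md, Atp5e, Sdhb, Cox20, Atp5o, Cox5a, Atp5k, Atp5c1, Atp5b and Atp5h, and the called lower genes were Cox14 and Cyc1. At a Benjamini-Hochberg adjusted p below 0.05 with no limit on the fold change, 13 were higher and 2 lower, where 11.8% of all genes passed in either direction. In 23 of the 47 the 3 LYC libraries were all above the 3 HFD libraries, which held for 18.7% of all genes, and in 4 they were all below, which held for 19.3%. The median log2 fold change of the 47 was 0.71, where that of all genes tested was -0.10. In bulk liver, fewer cells of a type and less RNA per cell cannot be told apart.

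Transcript length moved with the fold change across all genes tested, with a Spearman correlation of -0.24 over 5663 genes and of -0.14 over the 47 genes, all from the same 6 libraries. The median transcript length was 723 bases for the 47 genes and 2983 bases for all genes. With a length trend removed from each library, 6 of the 47 were called higher and 4 lower, and their median log2 fold change was 0.20. The same removal gave 357 higher calls and 326 lower calls among all 5663 genes, whose median was then -0.046. Atp5e (0.93), Atp5h (0.52), Atp5k (0.20), Atp5md (0.96), Cox20 (0.96) and Cox5a (0.90) were no longer called, and Cox8a and Atp5g2 became calls. Scaling by library totals alone shifted the median over all genes to -0.36 on the log2 scale and that of the 47 to 0.43. Then 8 of the 47 were called higher and 4 lower, with Atp5b, Atp5c1, Atp5h and Atp5k lost and Cox8a and Atp5g2 gained. Of all 5663 genes, this scaling called 234 higher and 656 lower, where the main fit called 395 higher and 369 lower. When each library was left out in turn, 11 of the 14 calls held every time, and those of Atp5b, Atp5h and Cyc1 did not. The part of length in the results was not tested further.

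**Figure D1:**
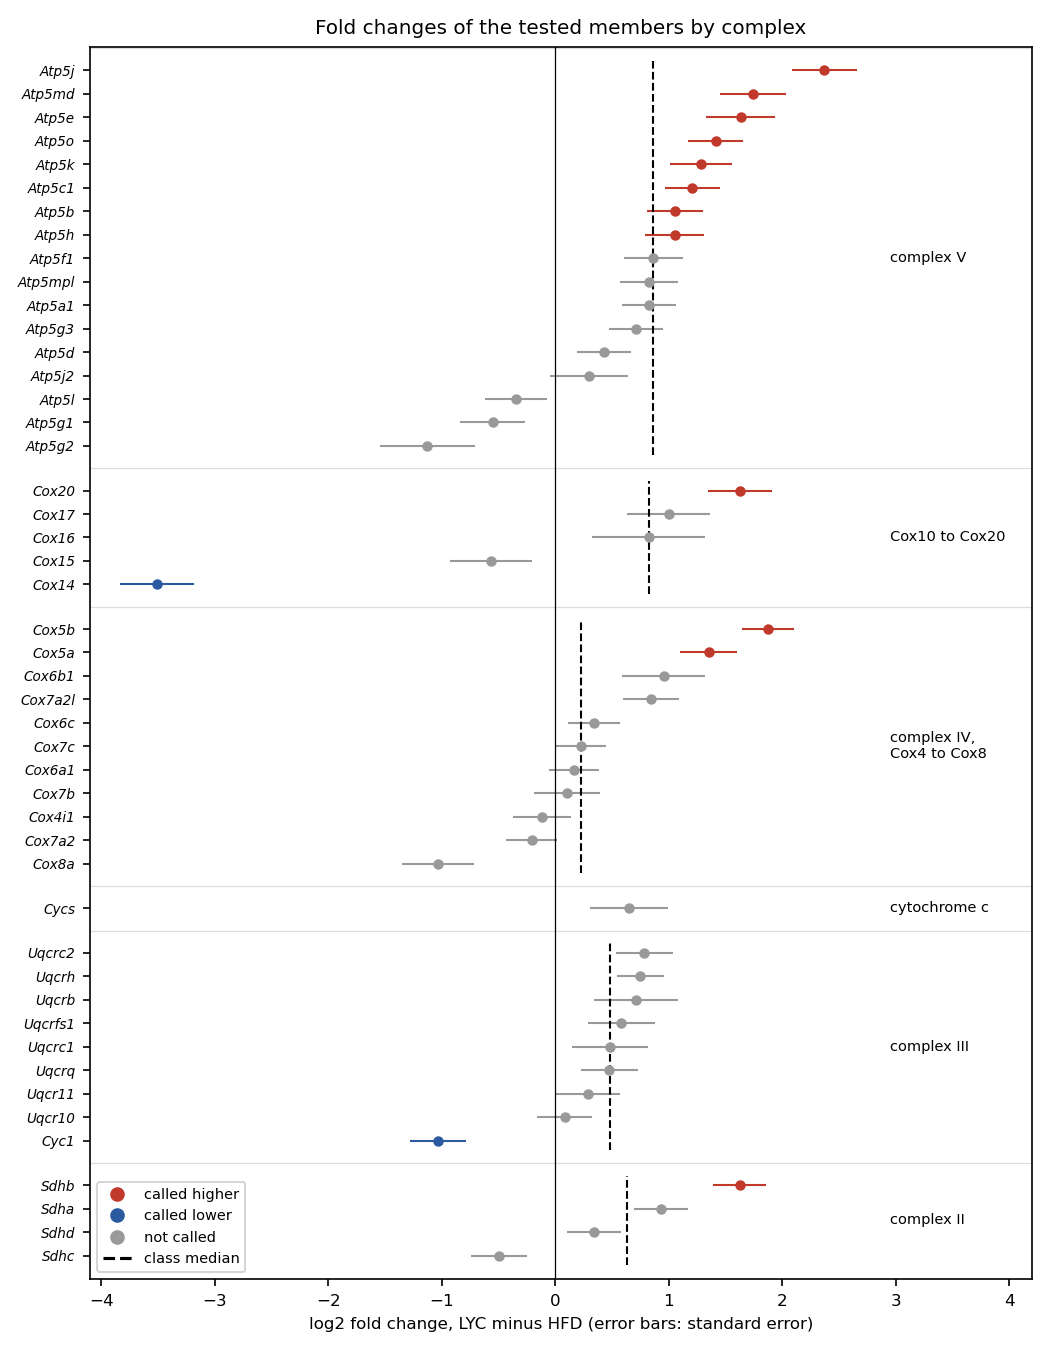
Log2 fold change of LYC against HFD for each of the 47 tested genes (points, x axis) with its standard error (bars), grouped by complex on the y axis. Red points were called higher, blue points called lower and grey points not called; dashed lines are the medians, from 0.22 for the Cox4 to Cox8 subunits to 0.86 for complex V, and Cox14 stands far to the left at -3.51.

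Complex II has a catalytic part that reaches into the matrix, made of Sdha (the flavoprotein that oxidises succinate) and Sdhb (the iron-sulfur subunit), and a membrane anchor made of Sdhc and Sdhd. Sdhb was at 121, 104 and 118 in HFD1, HFD2 and HFD3 and at 399, 391 and 286 in LYC1, LYC2 and LYC3. The LYC libraries all lay above the HFD libraries, and Sdhb rose 3.13-fold (log2 fold change 1.63, standard error 0.23, adjusted p = 0.00456). Sdha was at 157, 152 and 140 in HFD and at 325, 320 and 225 in LYC. The groups did not overlap, the adjusted p was 0.0377, and the log2 fold change of 0.93 was under the limit for a call. Leaving out LYC3 raised it to 1.08 and made it a call.

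The anchor genes were not called. Sdhc was at 116, 116 and 132 in HFD and at 105, 89.5 and 67.0 in LYC, with a log2 fold change of -0.50 (standard error 0.25) and an adjusted p of 0.212. Sdhd was at 91.4, 89.1 and 94.5 in HFD and at 143, 119 and 92.2 in LYC, with a log2 fold change of 0.34 (standard error 0.24) and an adjusted p of 0.375. For Sdhc all LYC libraries lay below the HFD libraries, and for Sdhd the groups overlapped. A ratio of reads between 2 genes of the same library does not depend on the scaling between libraries. The pairs set in ratio here and for the other complexes were chosen after their values were seen. Per coding base, Sdhb had 0.574, 0.492 and 0.492 reads for each read on Sdhc in HFD and 2.09, 2.40 and 2.34 in LYC. The ratio of Sdha to Sdhd was 0.874 ± 0.0718 in HFD and 1.32 ± 0.110 in LYC (means ± SD, n = 3). These pairs were chosen with their values known and were not tested.

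**Figure D2:**
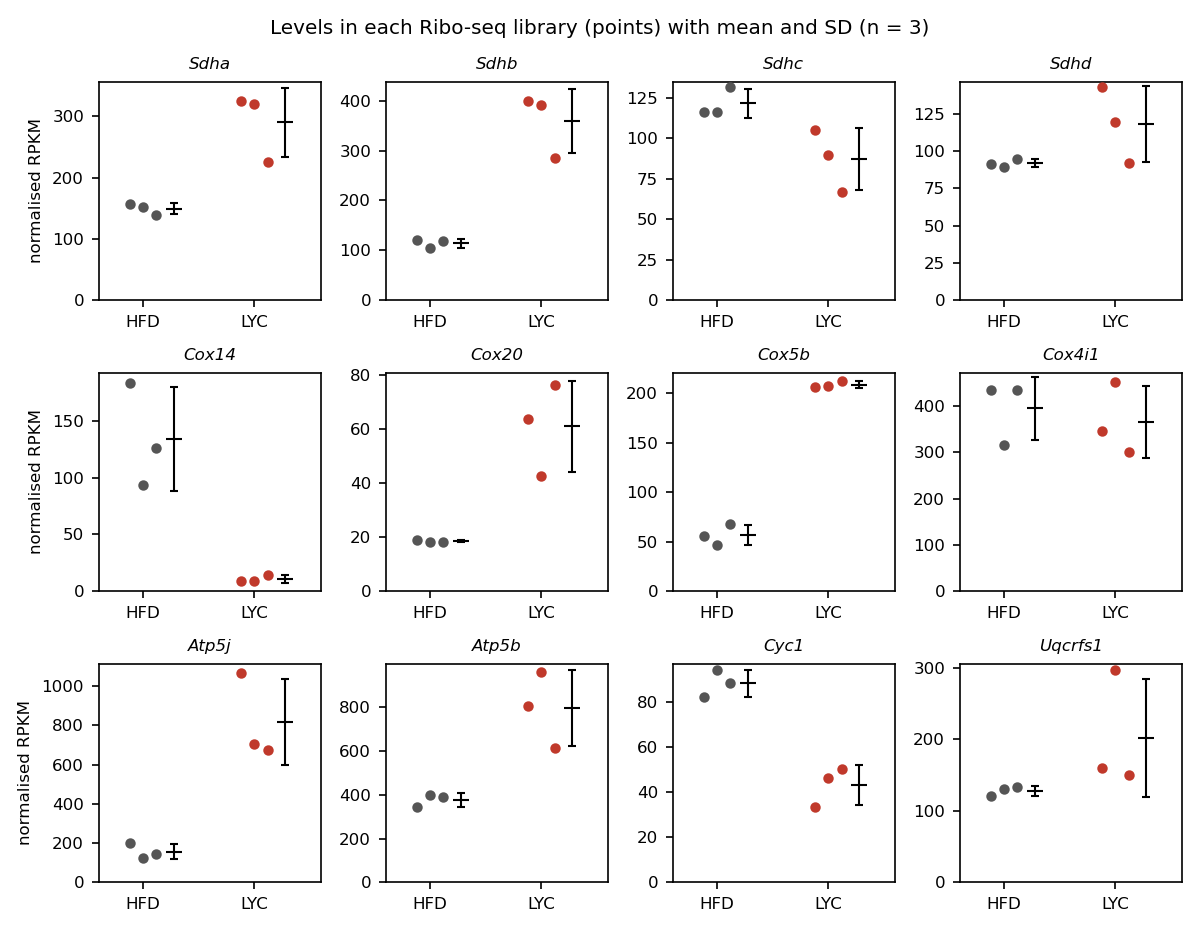
Normalised RPKM (y axis, from 0) of 12 genes in the 3 HFD and 3 LYC Ribo-seq libraries (points), with the mean and SD of each group beside them. Sdhb, Cox5b, Cox20, Atp5j and Atp5b were called higher in LYC, Cox14 and Cyc1 were called lower, and the groups of Cox4i1 and Sdhd overlapped.

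In complex III, Cyc1 was the single called gene. Cyc1 makes cytochrome c1, the haem protein that passes electrons to cytochrome c. It was at 82.4, 94.1 and 88.4 in HFD and at 33.4, 46.3 and 50.3 in LYC, with no overlap, and fell by 1.03 on the log2 scale (standard error 0.25, adjusted p = 0.0306). The call was close to its limit: it was lost without HFD2 (log2 fold change -0.97), without HFD3 (-1.03), without LYC1 (-0.84) and with a pseudocount of 5 (-0.96).

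The other 8 complex III genes had log2 fold changes above 0 and none was called. Uqcrfs1, the Rieske iron-sulfur protein and the other catalytic subunit of nuclear origin, was at 120, 131 and 133 in HFD and at 159, 297 and 150 in LYC, with a log2 fold change of 0.58 and an adjusted p of 0.222. Per coding base, Cyc1 had 0.672 ± 0.0264 reads for each read on Uqcrfs1 in HFD and 0.228 ± 0.0893 in LYC (means ± SD, n = 3). The core proteins Uqcrc1 and Uqcrc2 had log2 fold changes of 0.48 and 0.79, and the 5 small subunits Uqcrb, Uqcrh, Uqcrq, Uqcr10 and Uqcr11 lay between 0.08 and 0.75. Uqcrh, the hinge protein that helps cytochrome c dock, had the smallest p of these and was at 174, 189 and 175 in HFD and at 279, 328 and 304 in LYC, with no overlap (log2 fold change 0.75, adjusted p = 0.0524). Uqcrb was called without LYC1 (1.18). Uqcr10 lay at 0.08 and turned below 0 under several scalings. The median of complex III was 0.48.

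Cycs makes cytochrome c itself, the mobile carrier between complexes III and IV. It was at 20.1, 17.6 and 16.7 in HFD and at 41.2, 33.5 and 17.5 in LYC. LYC3 lay within the HFD range, and the log2 fold change of 0.65 (standard error 0.34) had an adjusted p of 0.236. Every word of 28 bases, about the length of a footprint, in the coding sequence of Cycs also occurs in an annotated transcript of another gene, so its reads depend on how such reads were assigned.

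Of the 18 Cox4 to Cox8 genes, 11 were tested. Cox5b and Cox5a, small nuclear subunits on the matrix side of the enzyme, were called higher. Cox5b was at 56.4, 46.7 and 67.7 in HFD and at 206, 208 and 213 in LYC. The LYC values were nearly equal and all above the HFD values, and Cox5b rose 3.67-fold (log2 fold change 1.87, standard error 0.23, adjusted p = 0.002). Cox5a was at 111, 115 and 135 in HFD and at 376, 328 and 236 in LYC, and rose 2.60-fold (log2 fold change 1.35, standard error 0.25, adjusted p = 0.0129). In Cox5b, 76.9% of the words of 28 bases also occur in a transcript of another gene, Gm11273.

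Cox4i1, the subunit 4 isoform of most tissues and the highest Cox4 to Cox8 gene by mean normalised RPKM in HFD, was at 433, 316 and 435 in HFD and at 345, 451 and 301 in LYC, where Cox6b1 had the higher mean (407 against 366). The groups overlapped, and the log2 fold change of -0.12 (standard error 0.26) had an adjusted p of 0.802. Per coding base, Cox5b had 0.176 ± 0.0159 reads for each read on Cox4i1 in HFD and 0.717 ± 0.151 in LYC (means ± SD, n = 3). Cox8a, a small transmembrane subunit, was at 234, 209 and 360 in HFD and at 180, 93.9 and 121 in LYC. Its groups did not overlap and its log2 fold change was -1.03 (standard error 0.32, adjusted p = 0.0697), just short of a call. It was called lower without LYC1 (-1.26), with edgeR (-1.01), with DESeq2, with library totals alone (-1.32), with scaling by reads outside small RNA genes (-1.25), with the replicate block, with a pseudocount of 5 (-1.01) and with the length trend removed (-1.59).

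The other tested subunits lay between these. Cox6b1 (0.96) and Cox7a2l (0.84) were not called, and each was called when a single library was left out. Cox6b1 was called without LYC3 (1.34), with edgeR (1.03) and with DESeq2 (1.05), and Cox7a2l was called without LYC1 (1.02). Cox6c (0.34), Cox7c (0.22), Cox6a1 (0.16), Cox7b (0.10) and Cox7a2 (-0.21) had overlapping groups and adjusted p-values of 0.355 to 0.846. The signs of Cox6a1, Cox7b and Cox7c turned with library totals alone (-0.12, -0.18 and -0.06). The median of the 11 was 0.22, and it moved to -0.06 with library totals alone and to -0.26 with the length trend removed.

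Several complex IV subunits have tissue isoforms. Those of heart and skeletal muscle had few reads: Cox6a2 had 8 reads in HFD1 and none elsewhere, Cox8b had 11 and 5 reads in HFD1 and HFD2 and none elsewhere, and Cox7a1 had 7 reads in HFD2, 1 in LYC2 and 2 in LYC3. Cox4i2, the isoform of lung, and Cox6b2, Cox7b2 and Cox8c, isoforms known from testis, had no read in any library. A count of 0 in the 6 libraries allows up to 0.330 reads per 1e6 reads by counting error alone. The liver forms of the same subunits, Cox6a1 and Cox7a2, were at 203 ± 21.2 and 100 ± 3.81 in HFD and at 228 ± 23.9 and 87.2 ± 12.8 in LYC (means ± SD, n = 3).

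The Cox10 to Cox20 genes make factors that insert haem and copper and guide the subunits of complex IV into place. Of these 9 genes, 5 were tested. Their log2 fold changes were -3.51 for Cox14 and between -0.56 and 1.63 for the other 4. Their median of 0.82 rests on few genes and few reads. It was 0.24 with no filter (9 genes), -0.56 with a mean of at least 20 reads (3 genes) and 0.31 without LYC2. Within each library the median log2 level of the assembly genes differed from that of the subunits by -3.41 to -3.14 in HFD and by -3.78 to -2.58 in LYC, so the distance between both classes overlapped between the groups.

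Cox14 was the most changed of the 47 genes. It makes a small membrane protein that binds newly made Cox1, the mitochondrially encoded core of complex IV. It was at 183, 93.1 and 126 in HFD and at 8.77, 8.85 and 14.6 in LYC. The recovered reads were 376, 375 and 78 in HFD against 2, 2 and 4 in the shallower LYC libraries. Per library total, Cox14 reached the level of the filter on low reads only in the HFD libraries, where it was high. The fits with a library left out and with the length trend removed kept the same genes. Every LYC library was far below every HFD library, and Cox14 fell by 3.51 on the log2 scale (standard error 0.33, adjusted p = 0.00044). By summed reads per normalised library total, its level was 11.3-fold higher in HFD, with a 95% interval of 5.70 to 26.2 that covers counting error only. The call held in all fits that left out a library (log2 fold change -3.76 to -3.25) and with the length trend removed (-3.94). Cox14 lies on the plus strand of chromosome 15 from 99725618 to 99728136 (GRCm38, RefSeq) and no annotated gene overlaps it. Its coding sequence of 174 bases lies in a single exon, and none of its words of 28 bases occurs in an annotated transcript of another gene. The reads were counted over the transcript of 723 bases, and their positions on it are not given in the files used. The coding sequence is shown because Cox14 had the largest fold change, with the start and stop codons in capitals, from chr15:99727653-99727826, plus strand:
Cox14: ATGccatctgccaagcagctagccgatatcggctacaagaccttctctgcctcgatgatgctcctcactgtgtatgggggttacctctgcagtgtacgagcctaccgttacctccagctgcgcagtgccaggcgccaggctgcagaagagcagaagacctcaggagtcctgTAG

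Cox20, which chaperones the mitochondrially encoded Cox2, went the other way. It was at 18.9, 18.4 and 18.3 in HFD and at 63.7, 42.8 and 76.4 in LYC. The groups did not overlap and Cox20 rose 3.29-fold (log2 fold change 1.63, standard error 0.28, adjusted p = 0.00914). The HFD values rest on 24, 46 and 7 reads and the LYC values on 9, 6 and 13 reads. Per library total, Cox20 reached the level of the filter on low reads only in the LYC libraries, where it was high. It was not tested at a mean of at least 20 reads, and with no filter its log2 fold change was 1.63 and it was called. Of its words of 28 bases, 44.0% also occur in the transcript of Cox20b. With the length trend removed, its log2 fold change was 0.96 and it was not called.

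The other tested assembly genes were not called. Cox17, the copper chaperone of the enzyme, was at 38.0, 16.5 and 16.1 in HFD and at 36.3, 44.0 and 54.3 in LYC (log2 fold change 1.00, adjusted p = 0.111), with HFD1 inside the LYC range. Without HFD1 its log2 fold change was 1.40 and it was called. Cox16, a factor for Cox2, was at 9.46, 10.3 and 6.53 in HFD and at 15.9, 33.9 and 7.35 in LYC (0.82, adjusted p = 0.299). Cox15, which makes haem a, was at 6.69, 6.36 and 5.84 in HFD and at 2.64, 6.66 and 3.29 in LYC (-0.56, adjusted p = 0.329). The groups overlapped in these. All words of 28 bases in Cox17 also occur in transcripts of Gm21987, and 77.2% of those in Cox16 occur in transcripts of Gm20498. Cox10 (haem o synthesis), Cox11 (copper insertion), Cox18 (membrane insertion of Cox2) and Cox19 (a twin CX9C protein) had too few reads to be tested, with 0 to 11 reads in any LYC library.

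In the main fit complex V gave most of the calls. There 8 of its 17 genes, all of them tested, were called higher and none lower, beside 6.98% and 6.52% of all genes. With the length trend removed, Atp5e, Atp5h, Atp5k and Atp5md were no longer called. With library totals alone, Atp5b, Atp5c1, Atp5h and Atp5k were no longer called. Atp5g2 was called lower under both of these settings. In 13 of the 17 the LYC libraries all lay above the HFD libraries, which held for 18.7% of all genes, and the median log2 fold change was 0.86. Within each library the median log2 level of complex V differed from that of the Cox4 to Cox8 subunits by -0.35, -0.20 and -0.10 in HFD1, HFD2 and HFD3 and by 0.50, 0.65 and 0.0093 in LYC1, LYC2 and LYC3. These differences did not overlap between the groups, with LYC3 close to the HFD libraries, and were not tested. By place in the enzyme, the log2 fold changes ran from 0.43 to 1.63 in the F1 head, from 0.86 to 2.37 in the peripheral stalk, from -0.34 to 1.74 among the accessory subunits in the membrane and from -1.13 to 0.71 among the subunit c genes. The ranges of the stalk and of subunit c did not overlap, every other pair of ranges did, and no difference between these places was tested. The F1 head, where ATP is made, is built from Atp5a1 (alpha), Atp5b (beta), Atp5c1 (gamma), Atp5d (delta) and Atp5e (epsilon). In all 5 the groups did not overlap, and 3 were called higher. Atp5e was at 226, 133 and 150 in HFD and at 482, 703 and 401 in LYC, and rose 3.12-fold (log2 fold change 1.63, standard error 0.30, adjusted p = 0.0129). Atp5c1 rose 2.35-fold (1.21, adjusted p = 0.0164). Atp5b, the catalytic beta subunit and the highest complex V gene by RPKM in HFD after Atp5g3, was at 342, 398 and 389 in HFD and at 806, 961 and 615 in LYC (1.05, adjusted p = 0.0295). It was not called without HFD1 (0.99) or without LYC2 (0.91). Atp5a1 and Atp5d had log2 fold changes of 0.82 and 0.43 and were not called.

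The peripheral stalk holds the head still against the rotor and is built from Atp5f1 (b), Atp5h (d), Atp5j (coupling factor 6) and Atp5o (the oligomycin sensitivity conferring protein). All 4 had LYC libraries above all HFD libraries. Atp5j was at 199, 125 and 146 in HFD and at 1068, 707 and 675 in LYC. The lowest LYC value was over every HFD value by a wide margin, and Atp5j rose 5.22-fold, the largest rise among the 47 genes (log2 fold change 2.37, standard error 0.28, adjusted p = 0.00163). Atp5o rose 2.72-fold (1.41, standard error 0.24, adjusted p = 0.00896). Atp5h had a log2 fold change of 1.05 (adjusted p = 0.0349), and its call was lost without HFD2 (0.98), HFD3 (1.02), LYC1 (1.05) or LYC2 (0.89). In Atp5h, 81.5% of the words of 28 bases also occur in transcripts of other genes. Atp5f1 had a log2 fold change of 0.86 and an adjusted p of 0.0634, and it was called without LYC3 (1.00).

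Of the 5 accessory subunits in the membrane, Atp5md and Atp5k were called higher. Atp5md, which helps ATP synthase form dimers and is also known as Usmg5, was at 204, 148 and 132 in HFD and at 672, 581 and 384 in LYC, and rose 3.39-fold (1.74, standard error 0.29, adjusted p = 0.00809). Atp5k (subunit e) rose 2.40-fold (1.28, adjusted p = 0.02), and its log2 fold change was 0.20 with the length trend removed. Atp5mpl had a log2 fold change of 0.83 with no overlap of the groups and was called without LYC2 (1.05), and Atp5j2 (0.30) and Atp5l (-0.34) had overlapping groups. Atp5j2 was at 165, 141 and 147 in HFD and at 326, 147 and 132 in LYC, and its log2 fold change was -0.092 without LYC1. Per coding base, Atp5j had 0.657, 0.573 and 0.649 reads for each read on Atp5l in HFD and 4.43, 3.41 and 4.66 in LYC. The ratio of Atp5b to Atp5a1, both of the F1 head, was 1.04 ± 0.0721 in HFD and 1.22 ± 0.0718 in LYC (means ± SD, n = 3). In Atp5l, and nearly in Atp5md (99.3%), the words of 28 bases occur in transcripts of other genes too.

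Subunit c forms the rotor ring of ATP synthase, and Atp5g1, Atp5g2 and Atp5g3 each encode it. The mature protein has 75 residues, and the codons of the 3 genes agree in the residue at 75 of 75 positions, so the genes differ in the imported leader and in silent bases. Over the 228 coding bases of the mature part with the stop codon, Atp5g1 and Atp5g2 had 194 bases in common, Atp5g1 and Atp5g3 182, and Atp5g2 and Atp5g3 179. No word of 28 bases was shared between them there. The last 90 coding bases are shown because these differences are what tells footprints of the 3 genes apart. Capitals mark positions where the 3 genes are not all alike, on the minus strand of chr11:96073104-96073193, chr15:102663014-102663103 and chr2:73908593-73908682 in turn (GRCm38):
Atp5g1: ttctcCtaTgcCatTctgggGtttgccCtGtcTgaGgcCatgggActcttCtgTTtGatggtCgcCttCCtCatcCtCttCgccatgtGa
Atp5g2: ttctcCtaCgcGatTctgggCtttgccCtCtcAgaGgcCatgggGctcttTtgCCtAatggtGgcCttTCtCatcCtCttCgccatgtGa
Atp5g3: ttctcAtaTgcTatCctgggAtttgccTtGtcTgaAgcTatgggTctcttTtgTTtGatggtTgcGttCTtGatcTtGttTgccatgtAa

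Atp5g3 was at 453, 440 and 402 in HFD and at 784, 796 and 569 in LYC, with no overlap (log2 fold change 0.71, standard error 0.24, adjusted p = 0.0851). Atp5g1 was at 139, 101 and 158 in HFD and at 83.4, 120 and 69.3 in LYC (-0.55, standard error 0.29, adjusted p = 0.234). Atp5g2 was at 84.5, 97.7 and 137 in HFD and at 34.3, 93.9 and 32.6 in LYC (-1.13, standard error 0.41, adjusted p = 0.111), and LYC2 alone lay inside the HFD range. Without LYC2 the log2 fold change of Atp5g2 was -1.61 and it was called lower. None of the 3 was called in the main fit, where the smallest unadjusted p from limma was 0.0154. With all libraries, Atp5g2 was called lower under library totals alone (-1.41) and with the length trend removed (-1.60).

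Of the reads on the 3 genes, Atp5g3 held 64.8%, 67.3% and 55.7% in HFD1, HFD2 and HFD3 and 85.6%, 77.3% and 83.3% in LYC1, LYC2 and LYC3. The lowest LYC share had a 95% Wilson interval of 71.3% to 82.4% and the highest HFD share one of 65.4% to 69.1%. These intervals cover counting error only. The group means were 62.6% ± 6.11 in HFD and 82.1% ± 4.27 in LYC (means ± SD, n = 3). Atp5g1 held 22.6% ± 3.94 in HFD and 12.3% ± 1.54 in LYC, and Atp5g2 held 14.8% ± 3.35 and 5.67% ± 2.75. In an exact two-sided permutation test over the 6 libraries, the share of each of the 3 genes gave p = 0.1, the smallest that 3 libraries against 3 allow, so this test cannot pass 0.05. All words of 28 bases in Atp5g1 and Atp5g2 also occur in annotated transcripts of other genes, mostly unnamed gene models, while none of Atp5g3 does.

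**Figure D3:**
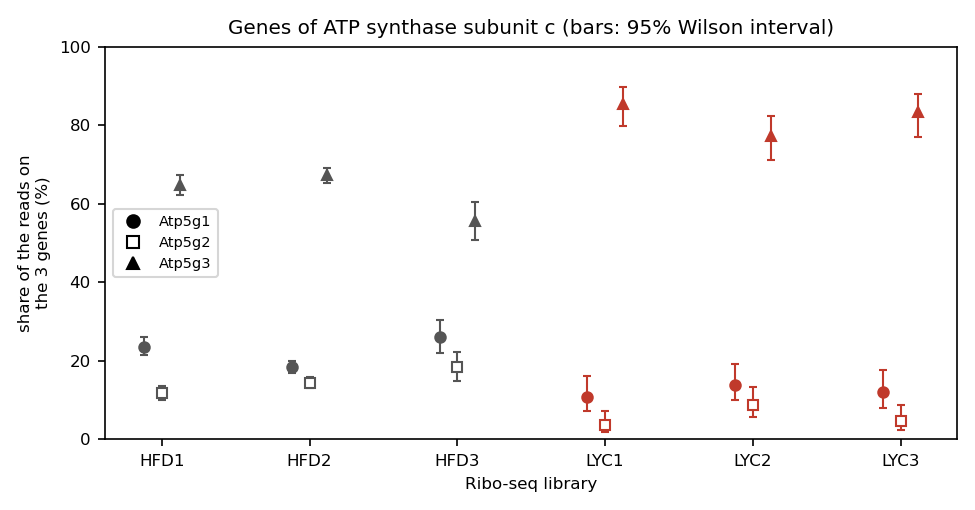
Share of the reads on Atp5g1, Atp5g2 and Atp5g3 that each gene held (y axis, percent) in each Ribo-seq library (x axis), HFD in grey and LYC in red, with 95% Wilson intervals. Atp5g3 held 55.7% to 67.3% in HFD and 77.3% to 85.6% in LYC.

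Levels of different genes can be compared only per length. RPKM divides by the whole transcript, while footprints fall on the coding part, and in Cycs only 318 of 3154 bases are coding. The levels below are per kilobase of coding sequence and 1e6 reads, on the same TMM scale. They count every read of a transcript as coding, as do the ratios per coding base above. The positions of the reads are not known here, so this was not tested. On this count Uqcrq was the highest of the measured genes in HFD at 800 ± 75.7. It was followed by Cox8a at 695 ± 210, Atp5g3 at 680 ± 41.8 and Cox7c at 612 ± 77.9 (means ± SD, n = 3). Of the 1525 bases of Uqcrq, 249 are coding, and its mean normalised RPKM in HFD was 131. Uqcrq was above Cox8a in 2 of the 3 libraries and Cox8a above Atp5g3 in 1, so these neighbours did not keep their order, while Atp5g3 was above Cox7c in all 3. In LYC the highest were Atp5j at 1616 ± 432, Atp5e at 1376 ± 407, Uqcrq at 1132 ± 261, Atp5g3 at 1128 ± 201 and Atp5md at 1120 ± 302. Atp5e was above Uqcrq in all 3 libraries, by 244 ± 162, and the other neighbours in this order changed places between libraries. Counted in the same way, Cox14 was at 558 ± 190 in HFD, as high as the subunit genes, and at 44.6 ± 13.8 in LYC. The other assembly genes lay from 6.87 (Cox10) to 53.4 (Cox17) in HFD and from 3.70 (Cox10) to 106 (Cox16) in LYC. In complex II the order in HFD was Sdhc at 281 ± 20.7, Sdhd at 245 ± 7.27, Sdha at 214 ± 12.7 and Sdhb at 146 ± 11.4. In LYC it was Sdhb at 456 ± 80.8, Sdha at 415 ± 80.9, Sdhd at 317 ± 68.1 and Sdhc at 201 ± 44.0. Each of these orders of complex II held in all 3 libraries of its group. Sdhb was above Sdha by 42.2, 38.8 and 40.8 in LYC1, LYC2 and LYC3.

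Other genes that serve these complexes were read from lists, beside the 6.98% of all genes tested that were called higher and the 6.52% called lower. Of the complex IV assembly factors outside the Cox names, 8 of 19 were tested, 1 was called higher and 1 lower. Lrpprc, which stabilises mitochondrial mRNAs, was at 25.1, 28.3 and 30.6 in HFD and at 87.1, 79.6 and 51.3 in LYC (log2 fold change 1.31, adjusted p = 0.0195). Sco2, a copper chaperone for Cox2, was at 37.1, 36.9 and 50.5 in HFD and at 7.76, 23.5 and 8.6 in LYC (-1.73, adjusted p = 0.03), where the LYC values rest on 3, 9 and 4 reads. None of the 4 complex II assembly genes, 1 of the 6 listed for complex III and 2 of the 5 for complex V passed the filter, and no gene of these lists was called. Ndufa4, which purifies with complex IV despite its name, rose from 363, 277 and 226 in HFD to 676, 714 and 567 in LYC (1.19, adjusted p = 0.021). Its log2 fold change was 0.58 with the length trend removed and 0.91 with library totals alone, both under the limit for a call. Of 11 regulators of mitochondrial genes, 6 were tested and limma called none, with unadjusted p-values under 0.05 for 2 of them. Of 10 genes of the outer membrane, 9 were tested and Vdac2, a channel, was called higher (1.71, adjusted p = 0.0121).

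Next to the genes of complexes II to V, 34 of 35 listed complex I subunits were tested, 11 were called higher and none lower, with a median log2 fold change of 0.80. Of 13 enzymes of the citric acid cycle, 3 were called higher and none lower, with a median of 0.59, and Fh1 (fumarase), the enzyme after succinate dehydrogenase in the cycle, was among them (1.56, adjusted p = 0.00739). Of 48 tested mitochondrial ribosomal proteins, 4 were called higher and 2 lower, near the shares over all genes, and their median was 0.22. With library totals alone these medians were 0.52 for complex I, 0.31 for the cycle and -0.04 for the ribosomal proteins. With the length trend removed they were 0.45 for complex I, 0.67 for the cycle and 0.10 for the ribosomal proteins, beside 0.20 for the 47 genes. The share of called higher genes was thus 12 of 47 for complexes II to V, 11 of 34 for complex I, 3 of 13 for the cycle and 4 of 48 for the ribosomal proteins. These are counts side by side and no difference between the lists was tested.

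**Figure D4:**
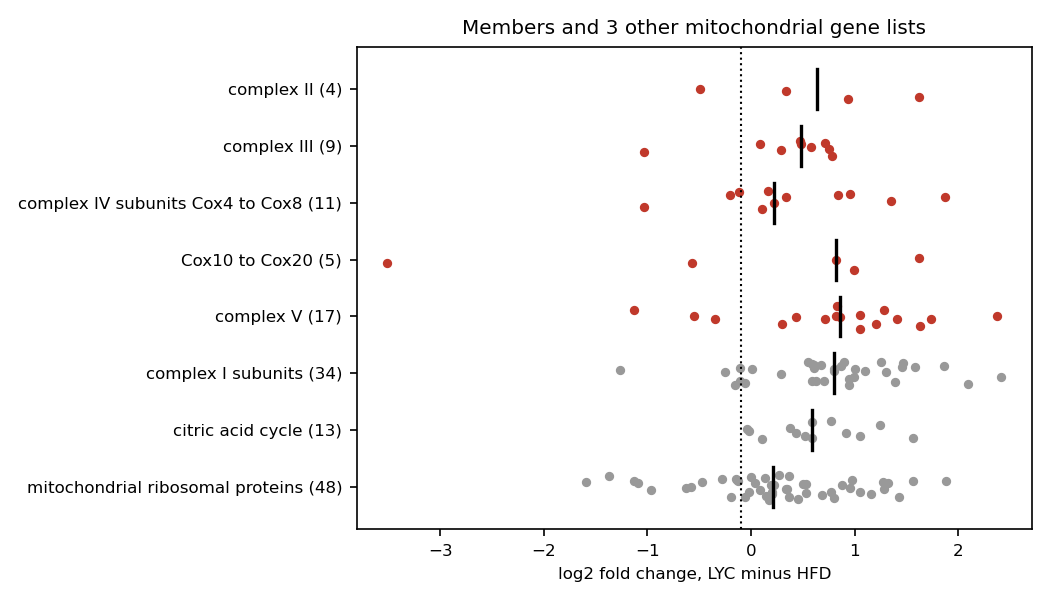
Log2 fold change of LYC against HFD (x axis) for the tested genes (points) of each class of complexes II to V (red) and of 3 other mitochondrial gene lists (grey), with the number tested in brackets and the median as a black bar. The dotted line is the median of all 5663 genes, -0.10; the medians of complex V (0.86) and complex I (0.80) lie to its right.

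Many genes of the respiratory chain carry sites for the nuclear respiratory factor NRF1 or for ETS factors such as GABPA at their start. The RefSeq promoter table (250 bases before to 50 after each start, GRCm38) held promoters for 44 of the 58 genes. The letters GCGCANGCGC, of NRF1 type, on either strand, were found in 10 of the 48 promoters of these genes (20.8%), in 10.3% of the promoters of genes tested and in 4.60% of all 32851 promoters. The letters CCGGAAG, of ETS type, on either strand, were found in 19 of the 48 (39.6%), which belong to 18 genes, in 16.9% of the promoters of genes tested and in 8.86% of all promoters. No match of either kind overlapped a match of the other in these promoters, and 4 genes held both. A match of letters is a description of the sequence and not a bound site. Among the genes with an ETS type match, those of the 4 with the largest log2 fold changes in size are shown, since they come from both directions. The match is in capitals, read along the gene's strand, from chr15:99725642-99725667 (plus), chr16:84835021-84835047 (minus), chr19:47090629-47090655 (minus) and chr2:174464187-174464213 (minus) in turn:
Cox14: gaggtagaagCCGGAAGttcaaggct
Atp5j: gctgagggacCCGGAAGcacttaccct
Atp5md: gagggggcgtCTTCCGGtcgggccgag
Atp5e: acggccacagCTTCCGGtagccgctcg

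Sdha, which was not called, holds 3 matches of NRF1 type and no match of ETS type, from chr13:74350231-74350260, chr13:74350276-74350305 and chr13:74350319-74350348 (minus strand), named by the distance of the match from the start:
Sdha at -10: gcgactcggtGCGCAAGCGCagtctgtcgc
Sdha at -55: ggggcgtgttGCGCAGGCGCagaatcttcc
Sdha at -98: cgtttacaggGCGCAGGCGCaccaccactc
Atp5j lies head to head with Gabpa on the opposite strand and their annotated spans overlap. Gabpa, the DNA-binding part of an ETS factor, was at 8.21, 8.24 and 6.56 in HFD and at 7.63, 18.0 and 10.6 in LYC, with overlapping groups and an adjusted p of 0.363.

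The reads of genes with near-identical copies are less certain, so the 47 genes were split by the share of their coding words of 28 bases that an annotated transcript of another gene also holds. Over all genes tested, 6.98% were called higher and 6.52% lower, with a median log2 fold change of -0.10. Among 14 genes with none shared, 2 were called higher and 2 lower, with a median log2 fold change of 0.53. Among 18 genes with some but under 50% shared, 7 were called higher and none lower, with a median of 0.79. Among 15 genes with at least 50% shared, 3 were called higher and none lower, with a median of 0.71. Sdhb, Atp5e, Cox14 and Cyc1 were the called genes without any shared word.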

How the data were processed

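Liver Ribo-seq libraries of the HFD and LYC groups (n = 3 each) were taken from the deposited data. The members and gene lists were chosen with earlier results of these data known. Per the methods and labels, the authors deposited RPKM values made with FANSE2 after cutadapt and Bowtie2 cleaning and a STAR alignment to GRCm38/mm10. Versions, annotation and the treatment of reads with several matches are not given in the sources used here. For the libraries labelled mRNA the authors deposited counts and RPKM, used here for gene lengths and for the comparison of both tables under the other observations.

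Of 25033 entries, 4 with a shared name were left out and 26 had names turned into dates. Reads were recovered from the RPKM steps, with lengths from the second table for 11129 genes and from the gene's own steps for 4620. With the second table's lengths, 71.9% to 72.4% of values were whole within 0.02 reads plus a small relative error. In a simulation of 3000 genes, 98.2% of 12554 values were recovered. Library totals ran from 311050 to 4405542 reads.

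RPKM was divided by TMM factors (0.80 to 1.26), 1 was added, and log2 values of the 5663 genes kept by filterByExpr were tested with limma's trend method, p-values adjusted by Benjamini-Hochberg over all of them. Fold changes on this scale understate those of low genes. On simulated data with these depths, limma called 174 of 175 genes changed by 2 on the log2 scale and 23 of 5247 unchanged genes. The simulation gave all genes the same dispersion of counts and held no length trend and no shift in small RNA reads. Its changed genes were drawn from those with a mean of at least 20 reads. These rates may therefore not hold for the real data or for changes nearer the limit for a call. A count test had been planned only as an alternative, as RPKM is the deposited unit. Named genes were all called members, the Sdh genes, Cyc1, Cycs, tested Cox10 to Cox20 genes, the subunit c genes, the Cox tissue isoforms and the highest member of each class. Other genes named with values, among them Uqcrfs1, Uqcrh, Sco2, Lrpprc, Ndufa4, Fh1 and Vdac2, were chosen after their values were seen. Coding sequences and promoters came from RefSeq (GRCm38.p6), other transcripts from GENCODE vM21. The alternatives were other scalings, pseudocounts, filters, thresholds, edgeR, DESeq2, a replicate block, removal of a length trend and leaving out each library. Fits ran in R 4.3.3 (edgeR 4.0.16, DESeq2 1.42.0, limma 3.58.1) and all else in Python 3.11.15 (scipy 1.17.1, numpy 2.4.6, matplotlib 3.10.9, pandas 2.3.3).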

Additional observations from a re-analysis of the deposited data

How the results depend on the processing

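The 12 genes called higher became 8 with library totals alone, 9 when scaled by reads outside small RNA genes, 9 at an unadjusted p below 0.001, 11 with a mean of at least 20 reads, 13 with edgeR and with DESeq2 and 6 with the length trend removed. They were 11 to 15 when a library was left out. The 2 called lower became 4 with library totals alone and with the length trend removed, 3 when scaled by reads outside small RNA genes, with edgeR and with DESeq2, 1 at an unadjusted p below 0.001, and 1 to 3 when a library was left out. Of all 5663 genes, the main fit called 395 higher and 369 lower. These became 234 and 656 with library totals alone and 357 and 326 with the length trend removed. They were 270 and 574 when scaled by reads outside small RNA genes, 493 and 408 with edgeR and 515 and 389 with DESeq2. With a library left out, they ran from 288 to 492 higher and from 153 to 607 lower. Complex medians moved with the scaling. With library totals alone they were 0.35 for complex II, 0.20 for complex III, -0.062 for the Cox4 to Cox8 subunits and 0.58 for complex V. When scaled by reads outside small RNA genes they were 0.41 for complex II, 0.26 for complex III and -0.00058 for the subunits. With the length trend removed they were 0.19 for complex III, -0.26 for the subunits, 0.32 for Cox10 to Cox20 and 0.52 for complex V. The Cox10 to Cox20 median was 0.24 with no filter, -0.56 with a mean of at least 20 reads and 0.31 to 0.89 when a library was left out. The other medians then ran from 0.53 to 0.78 (II), 0.32 to 0.62 (III), 0.14 to 0.32 (subunits) and 0.78 to 1.00 (V). Single uncalled genes turned sign: Cox6a1 to -0.12, -0.062 and -0.38, Cox7b to -0.18, -0.12 and -0.17, Cox7c to -0.062, -0.00058 and -0.44, and Uqcr10 to -0.20, -0.14 and -0.59, with library totals, scaling outside small RNA genes and length removal in turn. With length removal Uqcr11 turned to -0.39, Atp5j2 to -0.34 and Cox6c to -0.26. Without LYC1 Cox7b turned to -0.16 and Atp5j2 to -0.092 (its highest value with a library left out was 0.51), and without LYC3 Uqcr10 turned to -0.025. The cause of these shifts was not tested. A library left out leaves 2 in its group, and the fits pool the spread over all genes. Replicate numbers did not pair the samples: deviations of same-numbered libraries correlated at 0.11, 0.03 and -0.004. A fit with the replicate block called 12 higher and 3 lower, Cox8a being the added call. At this depth 4 members had no read and 7 more fell below the filter, and these were not tested.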

Other observations

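The libraries labelled mRNA were not used for comparisons, because their values track those of the Ribo-seq libraries. In the 3 LYC libraries labelled mRNA, the deposited counts equalled the reads recovered from a single Ribo-seq library for 42 of 49, 42 of 51 and 45 of 51 members with reads. Over all genes the equal share was 77.4% to 78.3%. Cox14, for example, had counts of 2, 2 and 4 in the LYC libraries labelled mRNA and 2, 2 and 4 recovered reads in the LYC Ribo-seq libraries. Sdhb had counts of 136, 132 and 117 in the former and 136, 132 and 117 recovered reads in the latter. HFD replicate 1, 2 and 3 labelled mRNA were closest to Ribo-seq replicate 2, 3 and 1 of HFD. There the counts equalled the recovered reads for only 3 of 52, 12 of 50 and 7 of 52 members and for 22.7% to 47.3% of all genes, and they were within 5% for 46 members in each library. In LYC they were within 5% for 45 of 49, 49 of 51 and 48 of 51 members. The total counts of the LYC libraries labelled mRNA were 1.67 to 1.87 times those of the matching Ribo-seq libraries, so RPKM values of a gene differed between the tables where its reads did not.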
